A study of Acidomyces sp. 'richmondensis' with 12 samples.

Results

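The genes described here numbered 50 of the 10043 genes measured in the acid-tolerant fungus Acidomyces richmondensis MEY-1. Their transcripts were reduced in a strain lacking the gene ArAceA (∆ArAceA) relative to the wild type (WT) in cultures without added copper. Transcript levels were in FPKM, that is sequenced fragments divided by transcript length and by the size of the library. A log2 difference is the difference between log2(mean FPKM + 1) of 2 groups. The 50 genes met 5 conditions. The log2 difference of ∆ArAceA from WT without copper was -1 or lower, copper changed the gene by more than -0.5 in ∆ArAceA and by less than 1 in WT, the highest group mean was at least 5 FPKM, and the mean over all libraries was under 1000 FPKM. All 12 libraries entered this choice. Every difference between groups given below is therefore a description of chosen genes and no independent test. No count of calls among them is read as support.

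The 4 groups were ∆ArAceA and WT without copper, and ∆ArAceA and WT in 15 mM CuCl2, with 3 cultures each. Mycelia were grown for 4 days in liquid MMC medium, washed, moved to fresh medium with or without copper, and sampled after 6 h. Growth was at 28 °C by the labels' protocol and at 30 °C by the design text. The study's title names CRISPR/Cas9 as the editing tool and copper resistance as the subject, and the number of deletion clones is not given in the sources used here.

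AceA of Aspergillus fumigatus is a copper-sensing transcription factor. When copper is in excess it switches on detoxification genes, among them the copper-exporting ATPase CrpA. The related factor Ace1 of Saccharomyces cerevisiae activates the copper-binding metallothionein gene CUP1 in the same situation. Transcript levels alone do not tell direct targets of such a factor from genes that change further downstream. The genes here carry locus identifiers (M433DRAFT numbers) with no gene names beside them, so no role is given to any of them, and the level of ArAceA itself was not analysed here.

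FPKM sums ran from 884111 to 926713 per library, and read depth was unknown. The median tested gene lay 0.12 higher in ∆ArAceA than in WT on the log2 scale both without and with copper. Of 8741 genes tested without copper, 1569 were called lower and 3564 higher in ∆ArAceA by limma (adjusted p under 0.05), and after median-of-ratios scaling 2763 were lower and 2704 higher. With copper the calls were 994 lower and 3092 higher, and 1877 and 1896 after that scaling. In bulk RNA, fewer cells that express a gene and less RNA per cell cannot be told apart.

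Before the conditions on copper were applied, 81 genes were at -1 or lower without copper. Of these, 19 had no group mean of 5 FPKM and 6 averaged 1000 FPKM or more. Of the remaining 56, 5 were lowered by copper in ∆ArAceA past the limit and 1 was raised in WT past the limit, which left the 50 genes. A filter of at least 1 FPKM in at least 3 libraries was passed by 49 of them.

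The reduction without copper was mostly moderate. The median of the 50 genes was 14.5 FPKM in ∆ArAceA and 34.1 FPKM in WT, and their median log2 difference was -1.17. ∆ArAceA held a median of 42.5% of the WT level and at most 49.5%. The log2 difference lay between -1 and -1.5 in 39 genes, between -1.5 and -2 in 5 and at -2 or lower in 6. Over the 7122 genes of the series that met the same conditions on level, the medians were 28.1 FPKM in ∆ArAceA and 25.1 FPKM in WT. All 3 ∆ArAceA libraries lay below all 3 WT libraries in 47 of the 50 genes, against 19.3% of all tested genes. limma called 46 of the 49 tested members lower, against 17.9% of all tested genes (40.8% were called higher). The rule used this contrast, in which 0.892% of all tested genes were at -1 or lower.

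The 50 genes together held 0.192 ± 0.00191% of the FPKM of a library in ∆ArAceA and 0.435 ± 0.0377% in WT without copper (mean ± SD, n = 3 cultures, here and below). With copper the shares were 0.296 ± 0.00384% in ∆ArAceA and 0.468 ± 0.00488% in WT. Among WT libraries without copper the share ran from 0.407% to 0.478%, the widest range of the 4 groups.

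The limit of -1 fell in a dense stretch of values. Just inside it, M433DRAFT_358639 stood at -1.01, with 47.1, 44.7 and 49.3 FPKM in ∆ArAceA and 99.1, 92.0 and 95.4 FPKM in WT. M433DRAFT_55971 stood at -1.01 too, and M433DRAFT_3181 lay closest to the limit. Just outside it were M433DRAFT_446306 at -0.99, M433DRAFT_497133 at -0.97 and M433DRAFT_4932 at -0.97. M433DRAFT_446306 had 9.98, 10.9 and 8.69 FPKM in ∆ArAceA and 21.3, 21.1 and 19.3 FPKM in WT. It and M433DRAFT_358639 thus differed similarly between genotypes, without overlap, on either side of the limit. M433DRAFT_55971, inside it, was uneven, and its 299, 141 and 54.4 FPKM in WT overlapped 73.6, 75.3 and 95.7 FPKM in ∆ArAceA.

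**Figure D1:**
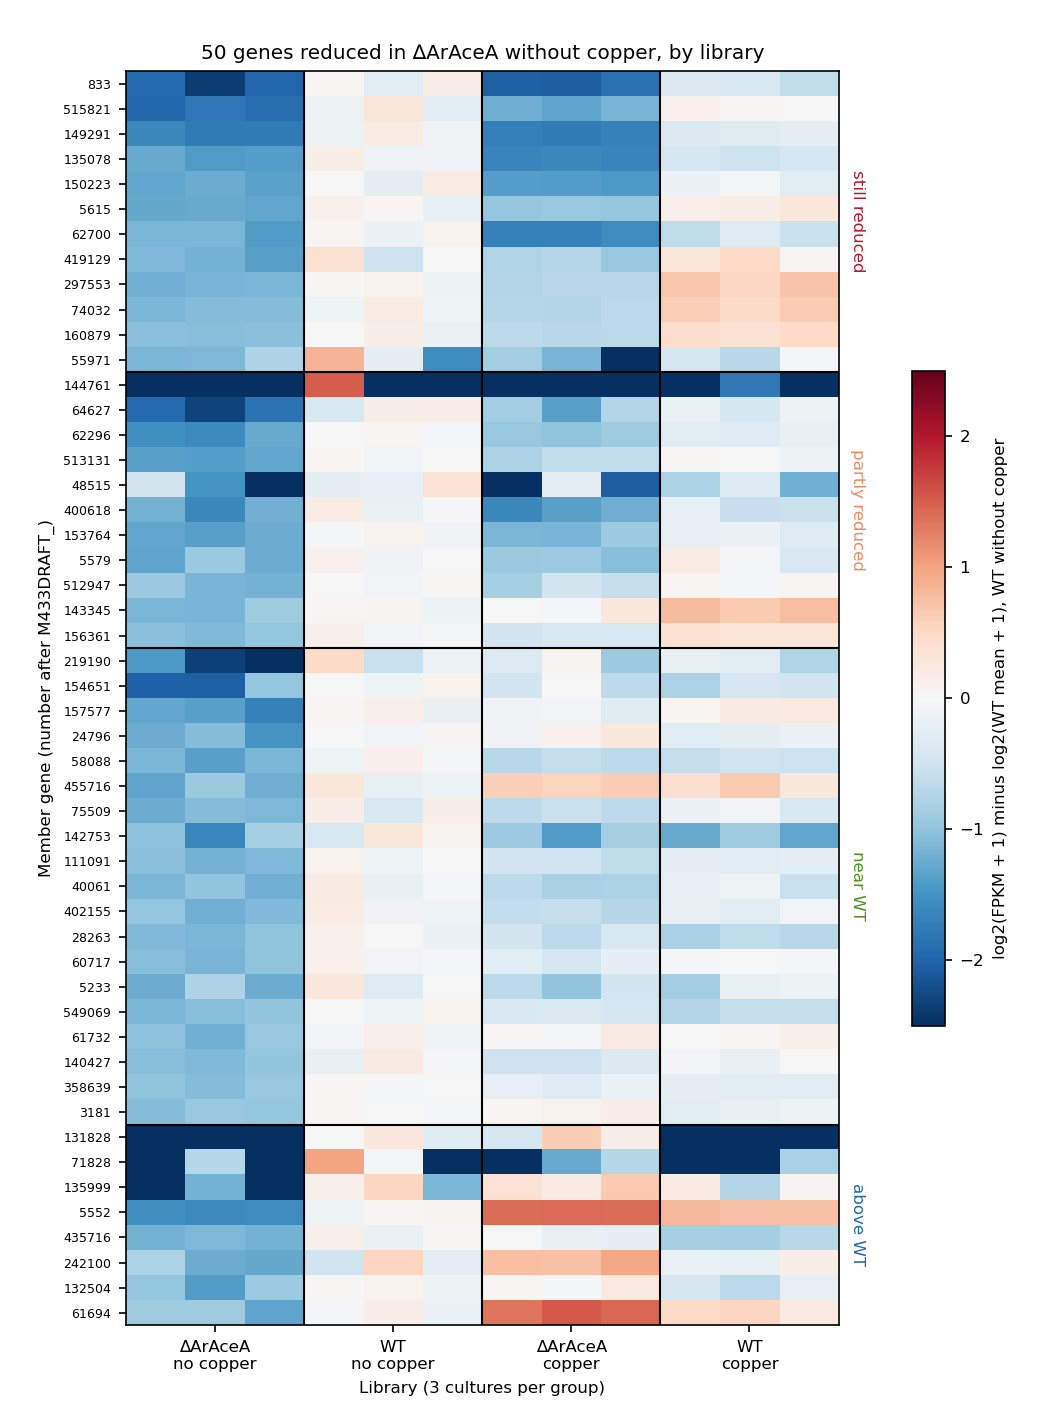
Level of each of the 50 genes (rows) in each of the 12 libraries (columns), as log2(FPKM + 1) minus the log2(mean + 1) of WT without copper; colours stop at -2.5 and 2.5, and rows are grouped by the level of ∆ArAceA relative to WT with copper. In 47 rows the 3 leftmost columns lie below all 3 WT columns without copper, and with copper the ∆ArAceA columns are bluer than the WT columns in the top set and redder, or less blue, in most rows of the bottom set.

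The 50 genes, chosen to lie at -1 or lower without copper, ranged from below WT to above it with copper. Their median log2 difference of ∆ArAceA from WT was -0.45 with copper, with values from -1.53 to 3.07, against a median of 0.12 over the 7122 genes. By round limits, 12 genes were still reduced (-1 or lower), 11 were partly reduced (above -1 to -0.5), 19 were near WT (between -0.5 and 0.5) and 8 were above WT (0.5 or more). The same limits held 1.36%, 3.02%, 84.5% and 11.1% of all tested genes. After median-of-ratios scaling the sets held 14, 13, 18 and 5 of the 50 genes. The rule bounds this contrast through its other conditions. limma called 27 of the 49 tested members lower in ∆ArAceA with copper, against 11.4% of all tested genes, and 10 higher, against 35.4%. These were 28 lower and 7 higher after median-of-ratios scaling. The groups did not overlap in 38 of the 50 genes with copper, with ∆ArAceA below WT in 29 and above it in 9, against 15.2% and 43.1% of all tested genes.

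**Figure D2:**
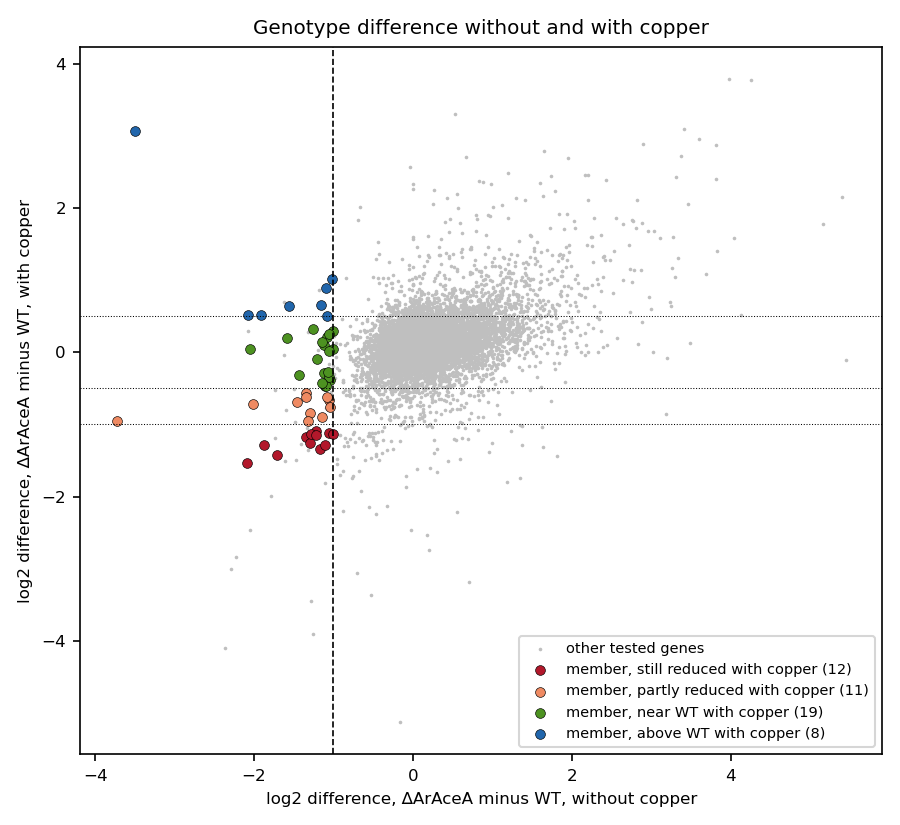
Log2 difference of ∆ArAceA from WT without copper (horizontal) and with copper (vertical) for each tested gene and the 50 members, coloured by set; the dashed line is the limit of the rule and the dotted lines divide the sets. The members lie left of -1 and spread from -1.53 to 3.07 with copper.

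The 12 genes that stayed reduced included the most abundant members. Their median was 65.9 FPKM in ∆ArAceA and 144 FPKM in WT without copper, and 60.6 FPKM in ∆ArAceA and 134 FPKM in WT with copper. The 5 members of highest WT level, M433DRAFT_297553, M433DRAFT_150223, M433DRAFT_160879, M433DRAFT_419129 and M433DRAFT_74032, all belonged to this set.

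M433DRAFT_297553 had 267, 276 and 280.3 FPKM in ∆ArAceA and 632, 658 and 567 FPKM in WT without copper. With copper it had 372.5, 384 and 380.3 FPKM in ∆ArAceA and 988, 887 and 1021 FPKM in WT. It was thus higher with copper in each genotype, without overlap between cultures with and without copper, and the log2 difference between genotypes was -1.17 without and -1.35 with copper. M433DRAFT_74032 and M433DRAFT_160879 followed the same course at lower levels. M433DRAFT_74032 averaged 94.4 ± 2.06 FPKM in ∆ArAceA and 204 ± 24.4 FPKM in WT without copper, and with copper it averaged 125 ± 2.95 FPKM in ∆ArAceA and had 316, 286 and 319 FPKM in WT. M433DRAFT_160879 averaged 118 ± 1.33 FPKM in ∆ArAceA and 245 ± 27.7 FPKM in WT without copper, and 153 ± 1.48 FPKM in ∆ArAceA and 333 ± 15.2 FPKM in WT with copper. In 4 members, these 3 and M433DRAFT_55971, the log2 difference between genotypes was at least as large with copper as without.

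M433DRAFT_150223 kept nearly the same distance between genotypes with and without copper. Its values were 241, 251 and 234 FPKM in ∆ArAceA and 599.8, 508 and 677 FPKM in WT without copper, a log2 difference of -1.29. With copper they were 227, 224 and 218 FPKM in ∆ArAceA and 538, 579 and 489.5 FPKM in WT, a log2 difference of -1.26. M433DRAFT_419129 spread widely in WT, with 109.7, 105 and 93.6 FPKM in ∆ArAceA and 312, 168 and 242 FPKM in WT without copper. Its genotypes still did not overlap in either condition, and it averaged 138 ± 11.2 FPKM in ∆ArAceA and 293 ± 47.3 FPKM in WT with copper.

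M433DRAFT_833 and M433DRAFT_149291, at low levels, had the largest log2 differences of the 50 genes on the reduced side with copper, at -1.53 and -1.42. M433DRAFT_833 had 2.46, 1.57 and 2.35 FPKM in ∆ArAceA and 12.8, 10.1 and 13.9 FPKM in WT without copper, a 5.76-fold difference between means. With copper it had 2.20, 2.19 and 2.62 FPKM in ∆ArAceA and 9.26, 9.12 and 7.61 FPKM in WT, a 3.71-fold difference. M433DRAFT_149291 was steady within ∆ArAceA, at 3.35, 2.90 and 2.97 FPKM without copper and 3.06, 2.96 and 3.12 FPKM with copper. In WT it had 11.2, 14.2 and 11.5 FPKM without copper and 9.39, 9.79 and 10.3 FPKM with copper. M433DRAFT_515821 was partly higher with copper in ∆ArAceA, at 10.2 ± 0.627 FPKM with copper against 6.14 ± 0.416 FPKM without. Its WT means were 26.1 ± 0.955 FPKM with copper and 25.3 ± 5.60 FPKM without, so ∆ArAceA was 2.57-fold below WT with copper.

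The 11 partly reduced genes had medians of 7.63 FPKM in ∆ArAceA and 17.3 FPKM in WT without copper, and 11.0 FPKM in ∆ArAceA and 17.5 FPKM in WT with copper. M433DRAFT_64627 was the most reduced of them apart from a gene carried by 1 library. Its values were 1, 0.53 and 1.13 FPKM in ∆ArAceA and 4.82, 7.51 and 7.60 FPKM in WT without copper, a 7.49-fold difference between means. With copper it had 3.19, 1.98 and 3.60 FPKM in ∆ArAceA and 5.79, 4.65 and 5.97 FPKM in WT, a 1.87-fold difference, and the genotypes did not overlap in either condition.

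The 19 genes near WT with copper had medians of 15.0 FPKM in ∆ArAceA and 33.4 FPKM in WT without copper, and 22.4 FPKM in ∆ArAceA and 27.3 FPKM in WT with copper. In all 19 the genotypes did not overlap without copper. With copper they overlapped in 8 of the 19. Without overlap, ∆ArAceA was still below WT with copper in another 8 and above it in 3. M433DRAFT_358639 had 83.0, 76.4 and 86.6 FPKM in ∆ArAceA and 80.3, 79.2 and 78.6 FPKM in WT with copper, so its 3 ∆ArAceA values lay on both sides of the WT values. M433DRAFT_3181 had 21.2, 23.65 and 23.1 FPKM in ∆ArAceA and 47.7, 46.9 and 44.5 FPKM in WT without copper. With copper it had 48.03, 49.5 and 52.0 FPKM in ∆ArAceA and 38.3, 40.9 and 42.5 FPKM in WT, with every ∆ArAceA culture above every WT culture. The genotypes overlapped with copper in the low-level gene M433DRAFT_219190, which averaged 7.95 ± 2.93 FPKM in ∆ArAceA and 7.70 ± 1.76 FPKM in WT with copper. Without copper it averaged 1.73 ± 1.29 FPKM in ∆ArAceA and 10.3 ± 4.15 FPKM in WT.

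**Figure D3:**
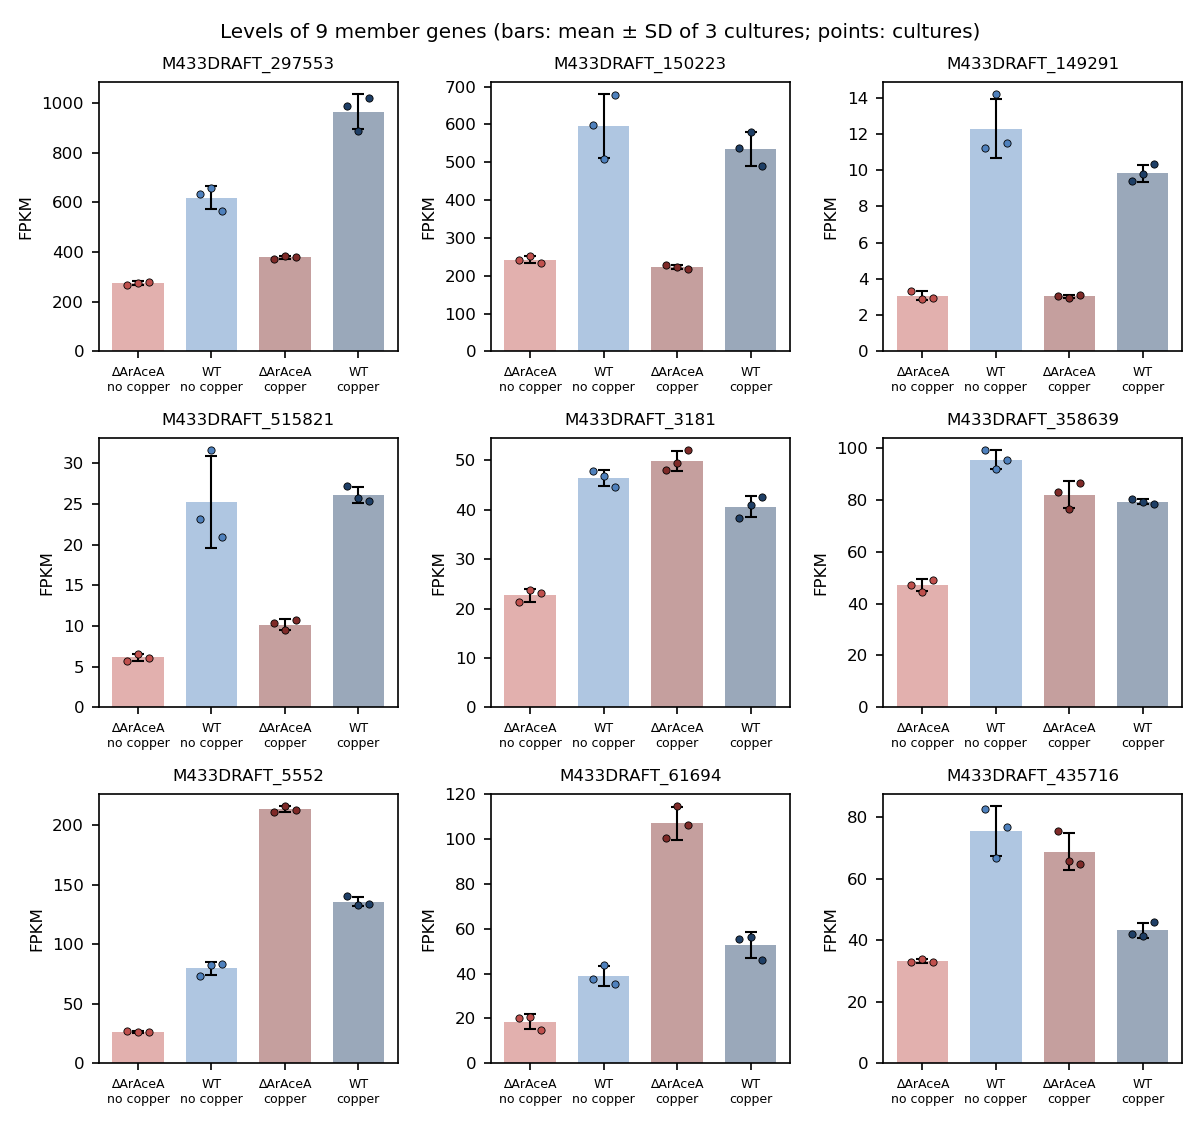
FPKM of 9 members in the 4 groups (bars are means, error bars SD and points the 3 cultures). The upper 3 and M433DRAFT_515821 stayed below WT with copper, M433DRAFT_3181 and M433DRAFT_358639 came near WT, and the lower 3 were above WT with copper.

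Among the 8 genes above WT with copper, 6 did so without overlap between the genotypes. M433DRAFT_5552 had even replicates, with 27.0, 26 and 26.1 FPKM in ∆ArAceA and 73.8, 82.6 and 83.5 FPKM in WT without copper. With copper it had 211, 216 and 213 FPKM in ∆ArAceA and 141, 133 and 134 FPKM in WT. The order of the genotypes was thus turned round, with ∆ArAceA 3.03-fold below WT without copper and 1.57-fold above it with copper. The ratio of means with copper to without was 8.09 in ∆ArAceA and 1.70 in WT.

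M433DRAFT_61694 showed the same turn. It had 20.4, 20.6 and 14.9 FPKM in ∆ArAceA and 37.5, 43.9 and 35.1 FPKM in WT without copper, and 100.2, 114.55 and 106 FPKM in ∆ArAceA and 55.3, 56.5 and 46.1 FPKM in WT with copper. M433DRAFT_242100 had 16.1, 11.5 and 11.2 FPKM in ∆ArAceA and 20.1, 41.8 and 24.1 FPKM in WT without copper, with 1 WT culture well above the other two. With copper it averaged 51.7 ± 4.90 FPKM in ∆ArAceA and 27.3 ± 3.73 FPKM in WT. M433DRAFT_435716 differed with copper in both genotypes by FPKM. It averaged 68.8 ± 5.93 FPKM in ∆ArAceA with copper against 33.2 ± 0.682 FPKM without, and 43.2 ± 2.47 FPKM in WT with copper against 75.4 ± 8.08 FPKM without. These are log2 differences of 1.03 in ∆ArAceA and -0.79 in WT, whereas the authors' deposited table gave log2 ratios of 0.50 and -0.21. M433DRAFT_131828, listed at 0 in all 3 ∆ArAceA cultures without copper, had 7.40, 16.45 and 11.5 FPKM in ∆ArAceA and 0.57, 1.01 and 0 FPKM in WT with copper.

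Taking the 27 genes that were near or above WT with copper, 16 were higher with copper than without by 0.5 or more in ∆ArAceA, on the log2 scale, while WT was not lower by 0.5 or more. Among them M433DRAFT_5552 was higher by 0.5 or more in WT as well. Another 7 combined the higher level in ∆ArAceA with a difference of -0.5 or lower in WT. M433DRAFT_142753 was the single gene past the limit in WT and not in ∆ArAceA. It had 8.09 ± 1.91 FPKM with copper and 7.49 ± 2.31 FPKM without in ∆ArAceA, and 7.43 ± 1.34 FPKM with copper and 17.5 ± 4.16 FPKM without in WT. The other 3 genes passed neither limit, and 1 did so after median-of-ratios scaling.

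Over all 50 genes copper was followed by higher levels in ∆ArAceA more often than in WT. The median log2 difference of cultures with copper from those without was 0.58 in ∆ArAceA and -0.22 in WT, against -0.03 and -0.02 over the 7122 genes. In ∆ArAceA 29 genes were at 0.5 or more and 21 between -0.5 and 0.5, and the rule admits none lower. It was 1 or more in 16, against 1.99% of all tested genes. In WT 4 genes were at 0.5 or more, 36 between -0.5 and 0.5 and 10 at -0.5 or lower, against 1.88% of all tested genes. limma called 36 of the 49 tested members higher with copper in ∆ArAceA (24.7% of all tested genes) and 2 lower (31.5%). In WT it called 8 higher (10.6%) and 14 lower (10.7%). The difference of the copper responses was positive in 46 of the 50 genes, and 34 of 49 were called so, against 20.2% of all tested genes called positive and 25.6% negative. Without overlap between cultures, ∆ArAceA was higher with copper in 37 genes (28.9% of all tested genes) and lower in 3 (36.1%). WT was higher in 8 (16.4%) and lower in 20 (18%). In 13 genes ∆ArAceA was higher and WT lower with copper, against 4.85% of all tested genes, and 5.24% showed the reverse. The rule asks for ∆ArAceA levels below WT levels without copper, which favours higher levels with copper in ∆ArAceA and lower levels in WT. Across the 50 genes the copper responses in ∆ArAceA and WT come from separate libraries. Their Pearson's r was -0.01 and their Spearman's rho 0.26, within the limits that the rule sets on each. The rule also compared the libraries without copper of the 2 genotypes, which enter these responses, so neither value is independent of it.

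**Figure D4:**
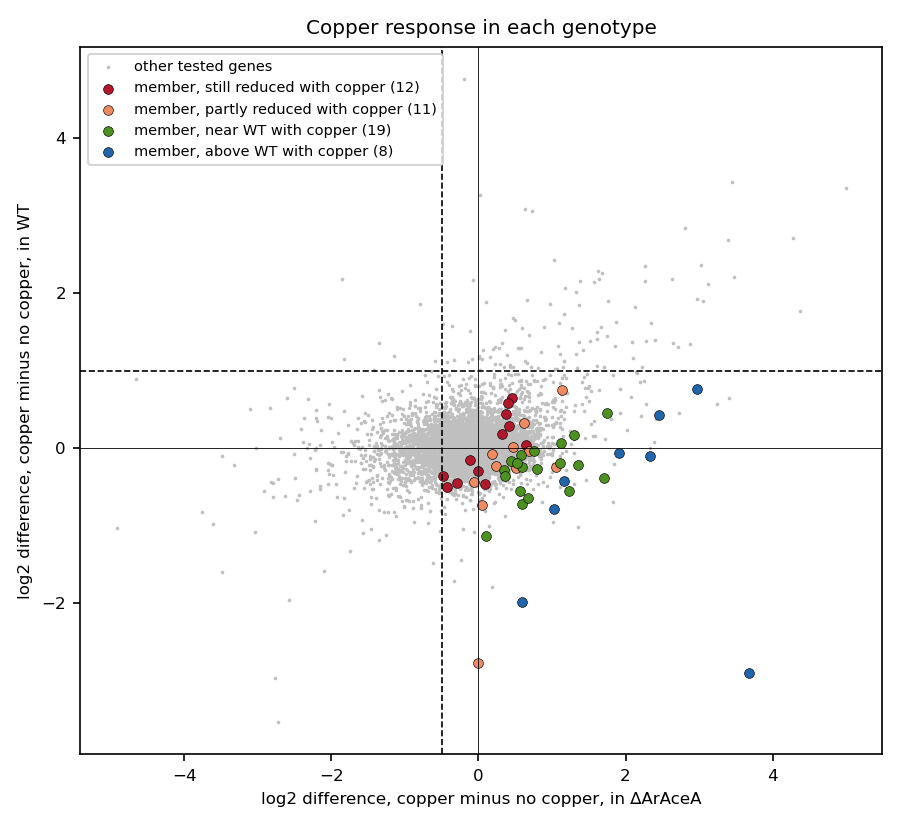
Log2 difference of cultures with copper from those without, in ∆ArAceA (horizontal) and WT (vertical), for each tested gene and the 50 members, coloured by set; dashed lines are the limits of the rule. In ∆ArAceA 29 members lie at 0.5 or more, whereas in WT 36 lie between -0.5 and 0.5.

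Set against WT without copper, ∆ArAceA with copper was within 0.5 on the log2 scale in 17 of the 50 genes, lower by 0.5 or more in 29 and higher by 0.5 or more in 4. Over the 7122 genes these counts were 5748, 344 and 1030. The 4 genes were M433DRAFT_5552, M433DRAFT_61694, M433DRAFT_242100 and M433DRAFT_455716, the last named after its values were seen. M433DRAFT_455716 had 12.8, 12.6 and 13.3 FPKM in ∆ArAceA with copper and 10.03, 7.10 and 7.39 FPKM in WT without copper, and WT with copper had 11.3, 13.4 and 10.03 FPKM.

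Some members rested on few libraries or varied widely between cultures. M433DRAFT_144761 had 36.7 FPKM in 1 WT library without copper and 2.83 FPKM in 1 WT library with copper, and was listed at 0 in the other 10 libraries. M433DRAFT_71828 had 0, 10.9 and 0 FPKM in ∆ArAceA and 37.7, 17.95 and 0 FPKM in WT without copper. With copper it had 0, 7.12 and 10.95 FPKM in ∆ArAceA and 1.69, 0 and 10.1 FPKM in WT. M433DRAFT_55971 had 73.6, 75.3 and 95.7 FPKM in ∆ArAceA and 299, 141 and 54.4 FPKM in WT without copper. These were the 3 genes whose genotypes overlapped without copper. M433DRAFT_135999 had 0, 1.47 and 0 FPKM in ∆ArAceA and 5.14, 7.18 and 1.53 FPKM in WT, so the highest ∆ArAceA value lay just under the lowest WT value. In 8 of the 50 genes the SD exceeded 50% of the mean in at least 1 group. With any single library left out, 31 of the 50 genes met the rule each time and 19 missed it at least once. The 31 included M433DRAFT_71828 and M433DRAFT_135999, so meeting the rule each time did not mean even replicates. M433DRAFT_55971 missed it most often, for 5 of the 12 libraries.

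Within groups the members varied together about as little as other genes. Deviations of each culture from its group mean, which the rule did not use, correlated at a median r of 0.02 over pairs of the 49 tested members, with quartiles of -0.25 and 0.31. Over pairs of all 8741 tested genes the median was 0.04, with quartiles of -0.24 and 0.32. For the 27 members whose group means all reached 10 FPKM the median was 0.004. Pairs of genes share the same 12 libraries, so these values describe the libraries. The spread within groups was somewhat wider than over the 7122 genes, with a median coefficient of variation of 9.12% in ∆ArAceA and 11.5% in WT without copper, against 4.82% and 7.06%.

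The log2 ratios and Q values of the authors' deposited table cover the same libraries. By the authors' deposited table, 45 of the 50 genes were lower in ∆ArAceA without copper at Q under 0.05, against 24.1% of the genes with a Q value, of which 23.9% were higher. The log2 ratio was -1 or lower in 43 of them in the authors' deposited table, with a median of -1.30 over the 50. With copper 28 of the 50 were lower and 6 higher at Q under 0.05 in the authors' deposited table, against 17.2% and 15.6% of its genes. For copper in ∆ArAceA the authors' deposited table had 35 of the 49 genes with a Q value higher and 1 lower, against 24.3% and 22.7%. For copper in WT the authors' deposited table had 8 higher and 13 lower, against 6.16% and 5.46%. For 42 genes the log2 ratio of mean FPKM lay within 0.3 of the ratio in the authors' deposited table, above it by a median of 0.13. The shift of the median gene without copper was 0.12, on log2(FPKM + 1) and over all 8741 tested genes. Whether the 2 values are related was not tested.

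The other genes differed more. M433DRAFT_135999 had a log2 ratio of mean FPKM of -3.24, against -0.67 (Q = 0.298) in the authors' deposited table. For M433DRAFT_71828 the values were -2.35 and, in the authors' deposited table, -0.23 (Q = 0.662). M433DRAFT_48515, named here after its values were seen, stood at -1.61 and, in the authors' deposited table, at -0.76 (Q = 0.311). M433DRAFT_435716 differed although its replicates were even, at -1.19 from the FPKM and -0.73 in the authors' deposited table. M433DRAFT_140427, named after its values were seen, stood at -1.13 from the FPKM and -0.60 in the authors' deposited table. M433DRAFT_219190 stood at -2.58 and, in the authors' deposited table, at -2.12. With copper the authors' deposited table gave M433DRAFT_435716 a log2 ratio of -0.05 (Q = 0.624), whereas all 3 ∆ArAceA FPKM values lay above the WT values. M433DRAFT_144761, with its single high library, had -0.30 (Q = 0.527) in the authors' deposited table. M433DRAFT_131828 had -7.11 in the authors' deposited table, where a gene listed at 0 in 1 group gives no FPKM ratio.

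**Figure D5:**
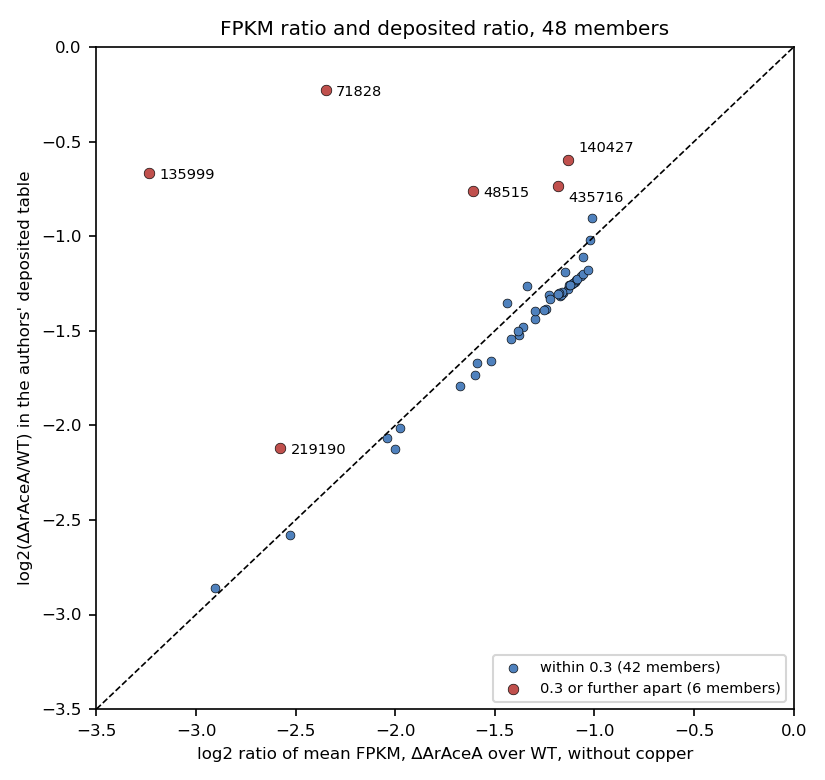
Log2 ratio of ∆ArAceA to WT without copper from mean FPKM (horizontal) and in the authors' deposited table (vertical) for the 48 members not listed at 0 in ∆ArAceA; the dashed line marks equal values. The 42 blue genes lie within 0.3 of the line in vertical distance, most of them below it, and the 6 red genes lie above it.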

How the data were processed

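The authors deposited FPKM values per library and for the series, and the 2 agreed in all 12 libraries (0 unequal values). The authors' deposited series table also gives log2 ratios and Q values for 4 comparisons. The tools listed are RSEM 1.2.8, DESeq2 and HISAT2 2.1.0, without their roles, per the submitters' processing notes. The genome build, annotation, strand and counting of reads from near-identical genes are not given in the sources used here. Groups and replicate numbers came from sample titles, and 0 columns were left unmapped. The replicates were separate cultures per the design text. FPKM keep no read depth, so no counting interval is given.

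Members were found in the FPKM as deposited. The members, sets and lists were chosen with earlier results of these data known. limma 3.58.1 in R 4.3.3, with trend and robust moderation, was fitted to log2(FPKM + 1) over the 4 groups for genes of at least 1 FPKM in at least 3 libraries. Benjamini-Hochberg adjustment ran over all 8741 genes, with calls at an adjusted p under 0.05, two-sided. The procedure was also tested on simulated data.

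Genes named were the 10 members most reduced without copper, the 5 of highest WT mean, the 5 with the largest response to copper in ∆ArAceA, the 5 most lowered by copper in WT, the 5 most reduced with copper, 3 on either side of the limit and any listed at 0 in a whole group. Lists by gene product were not used here. Alternatives were a pseudocount of 0.1, no filter, 2 scalings, fits on 6 libraries, a replicate block, other limits, group medians and leaving out each library.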

Additional observations from a re-analysis of the deposited data

Results flagged for a closer look

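In 13 of the 50 genes copper was followed by opposite changes in the genotypes without overlap between cultures: all 3 cultures with copper lay above those without in ∆ArAceA, and below them in WT. Over all 8741 tested genes this held for 4.85%. In the 13 the log2 difference with copper ran from -2.89 to -0.19 in WT and from 0.24 to 3.68 in ∆ArAceA. limma called the WT difference lower in all but M433DRAFT_132504, M433DRAFT_153764, M433DRAFT_154651 and M433DRAFT_24796. In the authors' deposited table Q in WT was 0.579 in M433DRAFT_153764, 0.348 in M433DRAFT_24796, 0.233 in M433DRAFT_358639 and 0.102 in M433DRAFT_3181. In ∆ArAceA Q was 0.298 in M433DRAFT_153764. Apart from M433DRAFT_131828 in WT, the rest were under 0.05. limma called the difference of the copper responses positive in all 13, against 20.2% of all tested genes. The choice of genes used these responses, so these calls are no independent test. Those of the 13 outside the rule for named genes were named after their values were seen. On the log2 scale the response in ∆ArAceA exceeded that in WT by 6.57 in M433DRAFT_131828, a size set by the pseudocount of 1 since the gene was listed at 0 in ∆ArAceA without copper. With a pseudocount of 0.1 its log2 difference of ∆ArAceA from WT was -6.71 without and 4.25 with copper, further from 0 than with a pseudocount of 1 in both. For copper in WT the authors' deposited table gave M433DRAFT_131828 a log2 ratio of -0.76 (Q = 0.102). The response in ∆ArAceA exceeded that in WT by 1.82 in M433DRAFT_435716, whose copper ratios in the authors' deposited table were smaller, by 1.79 in M433DRAFT_154651, by 1.58 in M433DRAFT_132504 and by 1.58 in M433DRAFT_24796. It did so by 1.32 in M433DRAFT_549069, by 1.30 in M433DRAFT_28263, by 1.29 in M433DRAFT_3181, by 1.11 in M433DRAFT_58088 and by 1.05 in M433DRAFT_358639. The remaining 3 genes were at 0.83 in M433DRAFT_111091, 0.77 in M433DRAFT_62296 and 0.46 in M433DRAFT_153764. M433DRAFT_549069, for example, had 137, 139 and 131 FPKM with copper in ∆ArAceA against 80.2, 84.8 and 89.0 FPKM without, and 106, 118 and 116.5 FPKM with copper in WT against 179, 165 and 189 FPKM without.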

How the results depend on the processing

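The number of genes that met the rule was 50 in the FPKM as deposited, 62 after either scaling, 53 with a pseudocount of 0.1, 44 with group medians, and 69 or 24 with a limit of -0.8 or -1.2. With single libraries left out it was 42 to 55. For the 50 genes the median log2 difference without copper was -1.31 after median-of-ratios and -1.31 after upper-quartile scaling. With copper it was -0.57 and -0.56 after these scalings, and -0.46 to -0.34 with single libraries left out. It was -0.38 without ∆ArAceA with copper replicate 1 and -0.34 without WT with copper replicate 2. The genes above WT with copper were 5 in place of 8 after median-of-ratios scaling and 5 after upper-quartile scaling, and 5 to 8 with single libraries left out. They were 5 without WT with copper replicate 2 and 5 without ∆ArAceA with copper replicate 3. Genes near WT by neither limit were 1 after median-of-ratios and 1 after upper-quartile scaling, in place of 3. The alternatives for how genes came near WT, the leave-one-out counts of the sets and the limit of 10 FPKM on group means were chosen after seeing the data. The cause was not tested. The 3 cultures per group and the unknown depth limit what low genes show.

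Deviations of same-numbered replicates from their group means correlated weakly, from -0.17 to 0.07 over 4 comparisons. With few cultures per group, these values cannot tell whether a shared number marks a shared batch, and no conclusion is drawn. With the replicate block the genes called were 4985 in place of 5133 for ∆ArAceA without copper, 3882 in place of 4086 with copper, 1621 in place of 1867 for copper in WT, 4733 in place of 4915 for copper in ∆ArAceA, and 3791 in place of 4006 for the difference of responses. Between ∆ArAceA with copper and ∆ArAceA without, all 6 libraries correlated best with their own number, at most at 0.04. Between the genotypes with copper 4 of 6 did so, and 0 of 6 did in each of the other comparisons. The members called lower in ∆ArAceA were 46 of 49 without and 27 of 49 with copper under the block, as without it.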
